A study of Arabidopsis thaliana with 28 samples.

Results

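The plant aquaporins described here are 10 genes, 5 of the tonoplast intrinsic protein (TIP) group and 5 of the plasma membrane intrinsic protein (PIP) group, out of 33557 genes in the deposited table of FPKM (fragments scaled to transcript length and library size). They were taken from that table by locus. The tonoplast genes are TIP1;1, TIP1;2, TIP2;1, TIP2;2 and TIP2;3, and the plasma membrane genes are PIP1;1, PIP1;2, PIP2;1, PIP2;2 and PIP2;7. All 10 were among the 18678 genes whose mean over the 28 libraries reached 1 FPKM, and these were the genes tested. Poly(A) RNA had been sequenced from wild-type Arabidopsis thaliana of the Col-0 genotype, Columbia ecotype. The seeds had been chilled, given 1 h of white light and then kept dark for 3 days. Seedlings were collected in darkness, or at one of 6 times (15 min, 30 min, 1 h, 3 h, 6 h and 12 h) under blue, red and weak far-red LEDs that simulated white light at 100 µmol m−2 s−1. The roots were cut off, and the hypocotyl (the embryonic stem) was separated from the cotyledons, which kept the shoot apex. The 2 tissues at 7 times form 14 groups of 2 biological replicates, A and B.

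Aquaporins are membrane channels that let water, and in some cases small neutral solutes, pass along a gradient. PIPs sit in the plasma membrane and TIPs in the tonoplast, the membrane around the vacuole, so that both groups lie on the path by which water enters the large vacuole of a growing plant cell. Members of the PIP2 subgroup are efficient water channels, and those of PIP1 form mixed tetramers with them. An etiolated hypocotyl lengthens mostly by expansion of existing cells, and light slows that lengthening while the cotyledons open and expand. The series asks how the response to light differs between these tissues.

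Upstream stretches of 300 bases are shown for 4 genes on which the results turn: the 2 with the deepest decline in the hypocotyl, the 1 that rose first in the cotyledons, and 1 of the 3 that hold a searched motif. They were read from the RefSeq genome, assembly TAIR10.1, and end at the base before the annotated transcript start. Each is written 5′ to 3′ on the strand of the gene, and capitals mark a match to GATAAG, the I-box core known from light-regulated promoters, here present on the other strand.
TIP2;1, chr3:5505060-5505359, plus strand: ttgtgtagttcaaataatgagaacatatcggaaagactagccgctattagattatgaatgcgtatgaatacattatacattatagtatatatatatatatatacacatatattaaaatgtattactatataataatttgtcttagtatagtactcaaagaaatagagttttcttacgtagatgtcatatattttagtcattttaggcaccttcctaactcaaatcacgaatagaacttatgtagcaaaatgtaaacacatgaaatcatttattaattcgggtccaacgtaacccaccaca
PIP2;7, chr4:16708061-16708360, plus strand: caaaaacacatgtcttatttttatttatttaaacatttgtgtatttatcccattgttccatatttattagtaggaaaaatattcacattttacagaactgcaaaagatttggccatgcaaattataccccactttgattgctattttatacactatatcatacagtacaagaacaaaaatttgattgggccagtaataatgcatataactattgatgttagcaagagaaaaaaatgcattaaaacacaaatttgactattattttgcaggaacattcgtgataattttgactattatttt
PIP2;1, chr3:19805731-19806030, minus strand: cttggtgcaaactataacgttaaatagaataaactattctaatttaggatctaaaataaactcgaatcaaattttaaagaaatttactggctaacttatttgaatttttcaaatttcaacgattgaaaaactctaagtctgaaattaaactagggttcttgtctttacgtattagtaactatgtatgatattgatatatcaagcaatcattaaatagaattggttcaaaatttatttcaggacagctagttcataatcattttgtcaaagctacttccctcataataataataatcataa
PIP1;2, chr2:18909781-18910080, plus strand: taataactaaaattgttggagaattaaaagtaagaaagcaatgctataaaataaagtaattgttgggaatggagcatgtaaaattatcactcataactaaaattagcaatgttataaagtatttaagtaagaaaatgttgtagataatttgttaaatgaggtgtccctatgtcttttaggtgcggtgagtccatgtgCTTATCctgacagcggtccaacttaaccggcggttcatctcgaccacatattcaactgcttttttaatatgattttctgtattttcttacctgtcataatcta
The letters searched on both strands were CACGTG (the G-box), AAAATATCT (the evening element) and GATAAG, and no match overlapped another. GATAAG was present once in the stretch of PIP1;2, 103 bases before the start, and once each in those of PIP1;1 (43 bases) and TIP2;3 (75 bases). The other 7 members had no match to it, and no member had a match to CACGTG or AAAATATCT. Over 26686 promoters of the same length, GATAAG was found in 14.5%, CACGTG in 7.2% and AAAATATCT in 2.8%.

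Library totals of reads were not analysed here. From the steps between low FPKM values, relative depth ran from 0.614 (replicate A of cotyledons at 1 h) to 1.72 (replicate B of hypocotyls at 1 h), and 1 FPKM of a transcript of 1000 nt stood for about 11.2 reads in a library of average depth. Replicates correlated across genes at 0.965 to 0.985 (Pearson). The share of summed FPKM from genes of the chloroplast genome was 0.0691% to 0.537% in hypocotyl libraries and 1.57% to 20.5% in cotyledon libraries, with the highest share in replicate A at 1 h and 4.23% in replicate B of that group. The tissue labels were checked against marker lists. The summed level of 6 root hair genes was at most 0.627 FPKM in any library. That of 6 endodermis genes was 2440 and 2560 FPKM in the dark hypocotyl libraries and 26.8 and 29.4 in the dark cotyledon libraries, and that of 6 cotyledon genes was 215 and 236 against 12600 and 17100. In bulk tissue, fewer cells of a type and less RNA per cell cannot be told apart. The 6 light groups of a tissue share 1 pair of dark libraries, and no dark libraries of later ages are in the design, so that light, age and time of day cannot be told apart.

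In darkness all 10 genes were far higher in the hypocotyl than in the cotyledons. Their summed level was 35030 ± 1370 FPKM (SD, n = 2) in dark hypocotyls and 3564 ± 651 FPKM in dark cotyledons. That was 4.28% ± 0.16 and 0.534% ± 0.095 of the summed FPKM of nuclear coding genes with transcripts of at least 500 nt. In the hypocotyl the sum was 32640 ± 311 FPKM after 1 h, 23280 ± 686 after 3 h, 14360 ± 806 after 6 h and 9809 ± 638 after 12 h, when it was 1.31% ± 0.035 of the nuclear coding sum. Both dark hypocotyl libraries lay above every light library of that tissue. In the cotyledons the sum was 3801 ± 556 FPKM after 1 h, 6359 ± 503 after 3 h, 5794 ± 194 after 6 h and 5068 ± 1320 after 12 h. By this sum the libraries of 3 h, 6 h and 12 h lay above both dark ones (4025 and 3104), those of 12 h at 5998 and 4137. The members' share of the nuclear coding sum was 0.705% ± 0.072 after 3 h, 0.572% ± 0.023 after 6 h and 0.508% ± 0.17 after 12 h. By share the 3 h libraries (0.654% and 0.756%) lay above both dark ones (0.601% and 0.466%). Those of 6 h (0.588% and 0.556%) lay between the dark ones, and those of 12 h (0.625% and 0.39%) lay on either side of them. The 10 genes made up 79.7% of the summed FPKM of all 35 aquaporins listed in dark hypocotyls and 90.7% in dark cotyledons.

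**Figure D1:**
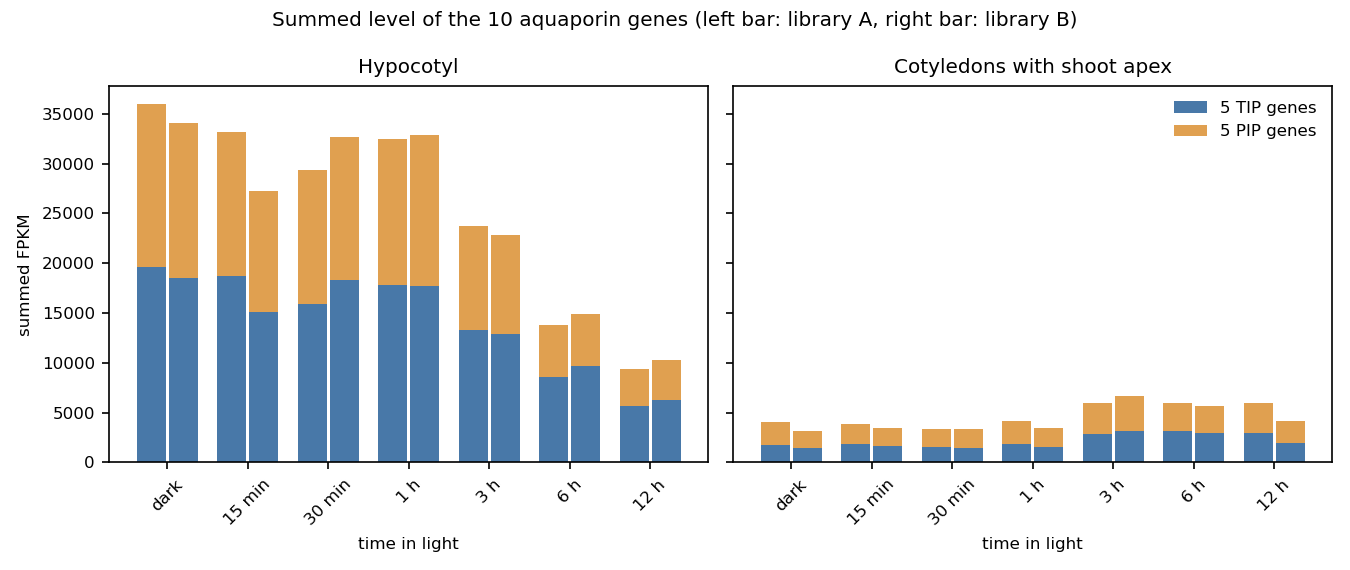
Summed FPKM of the 5 TIP and 5 PIP genes in each of the 28 libraries, by time in light, with hypocotyls and cotyledons on linear axes. Each pair of bars is replicates A and B. The hypocotyl mean went from 35030 in darkness to 9809 after 12 h, and the cotyledon mean stayed between 3316 and 6359.

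Within the dark hypocotyl the most abundant member was TIP1;2 (9403 FPKM), which stood clear of the next. TIP2;1 (4721), PIP2;7 (4711) and PIP1;2 (4512) came next, and their replicate values overlapped from each to the one after it. TIP2;3 was lowest (1055), clear of its neighbour. Ranked by mean FPKM among 25153 nuclear coding genes with transcripts of at least 500 nt, the members lay between place 3 and place 82 in dark hypocotyls. After 12 h the 2 genes next below the leader in darkness were the lowest, each clear of its neighbour, and the leader was the same. In dark cotyledons the same gene led (1427 FPKM), and PIP1;2 (909) and PIP2;7 (749) followed with overlapping replicates. The 2 lowest there, at 3.0 and 2.55 FPKM, were TIP2;2 and TIP2;3, which also overlapped. After 12 h in cotyledons the replicates of the first 3 genes overlapped from each to the next, and so did those of places 4 to 6.

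**Figure D2:**
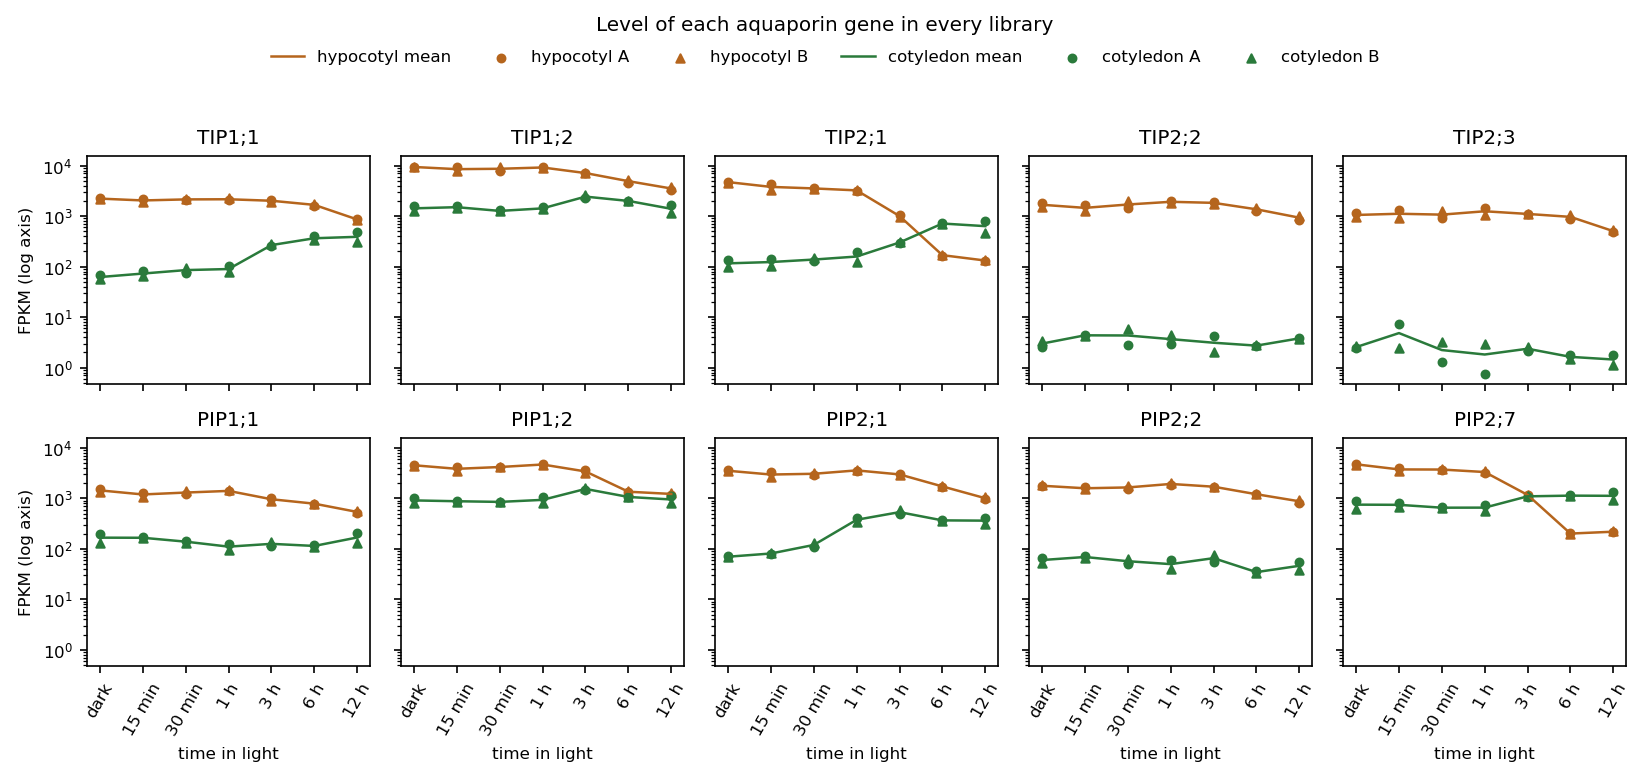
FPKM of each of the 10 genes (log axis) by time in light, in hypocotyls and in cotyledons with the shoot apex. Points are the replicates A and B and lines join their means. The 2 genes with the deepest decline in hypocotyls end below their cotyledon level.

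Light was compared with darkness with limma on log2(FPKM + 1), and a gene was called where the Benjamini-Hochberg adjusted p was below 0.05 and the change was 1 or more on the log2 scale in either direction. In hypocotyls no member was called lower after 15 min, 30 min or 1 h, against 0.616%, 1.84% and 3.37% of all genes tested. Of the 10, 2 fell by 3 h, against 8.82% of all genes, 4 by 6 h, against 11.9%, and 9 by 12 h, against 14.2%. No member rose there. The median change of the 10 was −0.32, −0.90 and −1.42 at these 3 times, beside 0.04, 0.01 and 0.02 over all genes tested. In cotyledons no member was called higher after 15 min, against 0.3% of all genes, or 30 min, against 1.7%. There 1 member rose by 1 h, against 6.56%, and 3 were higher after 3 h (13.1% of all genes), 6 h (16.9%) and 12 h (15.1%), with none lower. With the q-values of the authors' deposited table in place of the adjusted p, the 10 members kept the same calls in all 12 comparisons. The fitted changes and the size limit were the same in both, so that this is not an independent check. Under the size limit the 2 measures could differ. For TIP1;2 in hypocotyls after 6 h the authors' q was 0.166, beside a limma adjusted p of 1.14e-05.

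Among the tonoplast genes, TIP2;1 (AT3G16240, RefSeq symbol DELTA-TIP, chr3:5505360-5507050, plus strand, 3 exons) changed most. It encodes a tonoplast channel for water that also conducts ammonia. In the hypocotyl its FPKM in replicates A and B was 4813 and 4629 in darkness, 4273 and 3316 after 15 min, 3572 and 3504 after 30 min, 3113 and 3360 after 1 h, 1033 and 974 after 3 h, 166 and 172 after 6 h and 131 and 134 after 12 h. From 3 h on, both libraries of each time lay below every earlier library. The gene fell, with changes of −2.23 ± 0.218 (SE) after 3 h (adjusted p = 3.57e-08), −4.8 after 6 h and −5.15 after 12 h (adjusted p = 7.05e-14, 35.4-fold lower). Its share of the members' sum in the hypocotyl went from 13.5% in darkness to 1.35% after 12 h, and its rank among nuclear coding genes from place 9 to place 976. In cotyledons it was 133 and 99.4 FPKM in darkness, 143 and 104 after 15 min, 128 and 148 after 30 min, 195 and 122 after 1 h, 299.9 and 302 after 3 h, 744 and 685 after 6 h and 796 and 471 after 12 h. Here the gene rose, by 1.38 after 3 h, 2.62 after 6 h and 2.4 after 12 h (adjusted p = 1.35e-08, 5.29-fold higher), although replicates A and B stood well apart after 12 h. The 3 h value was under the size limit with quantile normalization (0.87). Of the 50-nt stretches of its exons, 6.81% are shared with AT3G16250, which overlaps on the other strand, and the sources used here do not say whether counting used strand.

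PIP2;7 (AT4G35100, RefSeq symbol PIP3, chr4:16708361-16710407, plus strand), a plasma membrane water channel, followed nearly the same course in the hypocotyl. It was 4869 and 4554 FPKM in darkness, 4046 and 3415 after 15 min, 3668 and 3757 after 30 min, 3177 and 3451 after 1 h, 1165 and 1172 after 3 h, 204 and 197 after 6 h and 213 and 223 after 12 h. The libraries of 3 h lay below all earlier ones, and those of 6 h and 12 h lay lower again, close to each other. The changes were −2.01 ± 0.161 after 3 h (adjusted p = 1.1e-09), −4.55 after 6 h and −4.42 after 12 h (adjusted p = 2.21e-15, 21.5-fold lower). After 1 h the change of −0.51 (adjusted p = 0.024, authors' q = 0.292) was under the size limit. The gene went from 13.5% of the members' sum in dark hypocotyls to 2.23% after 12 h, and from place 10 to place 511 among nuclear coding genes. In cotyledons it was 878 and 620.2 FPKM in darkness, 744 and 564 after 1 h, 1059 and 1130 after 3 h, 1152 and 1108 after 6 h and 1309 and 930.5 after 12 h, so that the libraries from 3 h on lay above the dark ones. Those changes, 0.57, 0.61 and 0.58 (adjusted p = 0.0046, 0.00231 and 0.00396), were under the size limit. The authors' q-values for them, 0.0877, 0.0549 and 0.221, were not below 0.05. Over the 7 hypocotyl group means, the levels of this gene and TIP2;1 had a Pearson r of 0.998, the highest among the 45 pairs of members. All 45 pairs had a positive r there, from 0.695 up, with a median of 0.934. In cotyledons 23 of the 45 pairs did, with a median r of 0.02. These are descriptions over 7 means from the same libraries.

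TIP1;1 (AT2G36830, RefSeq symbol GAMMA-TIP, chr2:15445294-15446621, plus strand), a main tonoplast water channel of vegetative tissue, fell late in the hypocotyl and rose in the cotyledons. In the hypocotyl it was 2276 and 2172 FPKM in darkness, 2214 and 1875 after 15 min, 2058 and 2231 after 30 min, 2044 and 2273 after 1 h, 2132 and 1903 after 3 h, 1600 and 1743 after 6 h and 867 and 853 after 12 h. The 12 h libraries were lowest by a wide margin, and the change at that time was −1.37 ± 0.177 (adjusted p = 8.54e-07, 2.58-fold lower). In cotyledons it was 68.7 and 55.8 FPKM in darkness, 80.7 and 65.3 after 15 min, 76 and 94.9 after 30 min, 102 and 77.8 after 1 h, 257 and 277 after 3 h, 396 and 333 after 6 h and 475 and 304 after 12 h. All cotyledon libraries from 3 h on lay above all earlier ones, and the gene rose by 2.09 after 3 h (adjusted p = 2.55e-09), 2.53 after 6 h and 2.6 after 12 h (adjusted p = 1.17e-10, 6.06-fold higher). In the cotyledons its share of the members' sum went from 1.75% in darkness to 7.69% after 12 h.

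TIP1;2 (AT3G26520, RefSeq symbol TIP2, chr3:9722443-9723904, minus strand) is the closest relative of that gene among the members, with 81.7% identity over the aligned coding sequence. In the hypocotyl it was 9587 and 9220 FPKM in darkness, 9284 and 7752 after 15 min, 7933 and 9395 after 30 min, 9248 and 9136 after 1 h, 7134 and 7118 after 3 h, 4618 and 5240 after 6 h and 3348 and 3703 after 12 h. From 3 h on the libraries of each time lay below all earlier ones. The change reached the size limit after 12 h, −1.42 ± 0.145 (adjusted p = 3.13e-08), and was −0.93 after 6 h (adjusted p = 1.14e-05), or −1.02 and past the limit without replicate B of 6 h. Even so it held place 10 among nuclear coding genes in the hypocotyl after 12 h and made up 35.9% of the members' sum, against 26.8% in darkness. In cotyledons it was 1574 and 1279 FPKM in darkness, 1496 and 1354 after 1 h, 2306 and 2564 after 3 h, 2028 and 1974 after 6 h and 1649 and 1144 after 12 h. The libraries of 3 h and 6 h lay above the dark ones and those of 12 h overlapped them. The changes of 0.78 after 3 h (adjusted p = 0.000102) and 0.50 after 6 h (adjusted p = 0.00534) were under the size limit. The authors' q-values for them, 0.0584 and 0.215, were not below 0.05.

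The last tonoplast genes, TIP2;2 (AT4G17340, chr4:9698940-9700472, plus strand) and TIP2;3 (AT5G47450, chr5:19248249-19249622, minus strand), have coding sequences that are 81.5% identical, and both had very low levels in cotyledons. The former was 1862 and 1495 FPKM in dark hypocotyls, 1992 and 1854 after 1 h, 1917 and 1749 after 3 h, 1288 and 1443 after 6 h and 851 and 1015 after 12 h. Its change after 12 h, −0.84 ± 0.258 (adjusted p = 0.0078), was under the size limit, although both 12 h libraries lay below both dark ones. Without dark replicate B it was −1.0 (adjusted p = 0.0118) and past the limit. The latter was 1131 and 979 FPKM in darkness, 1440 and 1058 after 1 h, 1087 and 1125 after 3 h, 895 and 1039 after 6 h and 486 and 523 after 12 h. Both 12 h libraries lay below all others, and the gene fell with a change of −1.06 ± 0.398 (adjusted p = 0.0277). That call ended when any 1 of the 4 libraries compared was left out: the adjusted p was 0.116 without dark replicate A, 0.0581 without dark B, 0.0952 without 12 h A and 0.0705 without 12 h B. It also ended with a pseudocount of 0.1 (adjusted p = 0.0941) and with quantile normalization (−0.91). In the 14 cotyledon libraries the former ran from 2.04 to 5.83 FPKM and the latter from 0.759 to 7.28, where 1 FPKM stood for about 15.2 and 13.1 reads in a library of average depth. No change of either was called in cotyledons.

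Among the plasma membrane genes, PIP2;1 (AT3G53420, RefSeq symbol PIP2A, chr3:19803473-19805730, minus strand), a water channel of roots, leaves and guard cells, was the first member to be called in cotyledons. There it was 72.1 and 67.4 FPKM in darkness, 78.8 and 82.8 after 15 min, 109.5 and 129 after 30 min, 411 and 341 after 1 h, 478 and 586 after 3 h, 378 and 354 after 6 h and 412 and 310.2 after 12 h. Every light library lay above both dark ones, and the step between 30 min and 1 h was the widest. The change was 0.76 after 30 min (adjusted p = 0.000415), under the size limit, and the gene then rose by 2.41 ± 0.135 after 1 h (adjusted p = 1.11e-11, 5.31-fold higher), 2.91 after 3 h, 2.37 after 6 h and 2.34 after 12 h. Its share of the members' sum in cotyledons was 1.96% in darkness and 8.37% after 3 h. In the hypocotyl it was 3608 and 3415 FPKM in darkness, 3478 and 3663 after 1 h, 2997 and 2946 after 3 h, 1713 and 1725 after 6 h and 967 and 1042 after 12 h. The libraries of 6 h and 12 h lay below all earlier ones. The change was −1.8 after 12 h (adjusted p = 2.55e-10) and −1.03 after 6 h (adjusted p = 1.28e-06). The 6 h call ended without dark replicate A (−0.99) and with quantile normalization (−0.29, adjusted p = 0.0523).

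PIP2;2 (AT2G37170, RefSeq symbol PIP2B, chr2:15613368-15615022, minus strand), a close relative with 86.2% identity over the aligned coding sequence, was not called higher in cotyledons at any time. It was 67.1 and 52.9 FPKM there in darkness, 49.8 and 63.9 after 30 min, 58.8 and 40.8 after 1 h, 53.7 and 77 after 3 h, 36.2 and 33 after 6 h and 53.7 and 38.5 after 12 h. The values overlapped those of darkness except after 6 h, when both were lower (−0.77, adjusted p = 0.00108, under the size limit). The difference in change between these relatives was not tested. In the hypocotyl it was 1720 and 1826 FPKM in darkness, 1874 and 1977 after 1 h, 1691 and 1705 after 3 h, 1201 and 1207 after 6 h and 807 and 939.7 after 12 h, and the change after 12 h was −1.02 ± 0.184 (adjusted p = 5.7e-05). That call ended without dark replicate B (−0.98), without 12 h replicate A (−0.91) and with quantile normalization (−0.74). Its transcript shares 14.71% of its 50-nt stretches with its near copy AT2G37180, so that its values are uncertain where reads could be split between them. The 8 members not noted for such stretches shared none with another gene.

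PIP1;2 (AT2G45960, RefSeq symbol PIP1B, chr2:18910081-18911982, plus strand), known for its part in water transport of roots and rosettes, was 4623 and 4402 FPKM in dark hypocotyls, 4684 and 4656 after 1 h, 3590 and 3216 after 3 h, 1322 and 1380 after 6 h and 1170 and 1271 after 12 h. The widest step lay between 3 h and 6 h, and the gene fell, with changes of −1.74 ± 0.146 after 6 h (adjusted p = 1.77e-09) and −1.89 after 12 h (adjusted p = 4.23e-10). In cotyledons it was 1027 and 790.2 FPKM in darkness, 1057 and 807 after 1 h, 1430 and 1636 after 3 h, 1073 and 1056 after 6 h and 1093 and 803 after 12 h. The 3 h libraries stood above both dark ones by a wide margin, yet that change of 0.76 (adjusted p = 0.000131) was under the size limit.

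PIP1;1 (AT3G61430, RefSeq symbol PIP1A, chr3:22733243-22735394, plus strand) has a coding sequence 87.6% identical to that of its relative in the same subgroup and was less abundant in both tissues. In the hypocotyl it was 1508 and 1364 FPKM in darkness, 1372 and 1431 after 1 h, 1024 and 892 after 3 h, 781 and 785 after 6 h and 518 and 557 after 12 h. The libraries of 3 h, 6 h and 12 h lay below all earlier ones. The changes of −0.58 and −0.87 after 3 h and 6 h (adjusted p = 0.0136 and 0.0005) were under the size limit, and the gene fell by 12 h, with a change of −1.42 ± 0.19 (adjusted p = 1.59e-06). In cotyledons it was 199.5 and 133 FPKM in darkness, 126 and 94.7 after 1 h, 112 and 139 after 3 h, 119.7 and 108 after 6 h and 205 and 131 after 12 h. Those values stayed near or below the dark ones until 12 h. The change of −0.57 after 1 h passed the adjusted p limit alone, as did the lower value after 6 h, and none of the changes reached the size limit.

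The later times were also compared with each other without the dark libraries, in 3 steps from 1 h on. From 1 h to 3 h, 2 members fell, against 4.31% of all genes tested: TIP2;1 (−1.69 ± 0.218, adjusted p = 3.47e-06) and PIP2;7 (−1.5, adjusted p = 2.24e-07). From 3 h to 6 h, 3 fell, against 3.55%: the same pair, by changes of −2.56 and −2.54, and PIP1;2 (−1.33, adjusted p = 8.15e-07). From 6 h to 12 h none was called, against 1.55%. The largest change in that interval among members, that of TIP1;1 (−0.96, adjusted p = 0.000504), passed the size limit without replicate A of 6 h (−1.02) and with quantile normalization (−1.15). In cotyledons TIP1;1 rose by 1.58 from 1 h to 3 h (adjusted p = 5.25e-07), the 1 member called, against 5.47% of all genes. TIP2;1 rose by 1.24 from 3 h to 6 h (adjusted p = 0.000266), again the 1 member called, against 2.7%, and was at 0.93 with quantile normalization. From 6 h to 12 h no member was called higher there, against 2.32%.

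The change with light was then compared between the tissues, as the hypocotyl change minus the cotyledon change. No member was called after 15 min, against 0.273% of all genes tested on the lower side, or after 30 min, against 1.26%. Members called at later times were all lower in the hypocotyl: 1 after 1 h, against 5.04%, 6 after 3 h (13.5%), 6 after 6 h (19.1%) and 8 after 12 h (17.3%). The size was greatest for TIP2;1, −7.42 ± 0.308 after 6 h and −7.55 after 12 h (adjusted p = 2.34e-13), since it fell in one tissue and rose in the other. PIP2;7 differed by −5.16 after 6 h (adjusted p = 3.08e-13). The gene called after 1 h was PIP2;1, at −2.38 ± 0.192 (adjusted p = 1.81e-08). Its value after 30 min, −0.96, passed the limit without any 1 of 4 libraries, cotyledon dark A (−1.01), cotyledon 30 min A (−1.08), hypocotyl dark B (−1.0) or hypocotyl 30 min B (−1.03). The 2 members not called after 12 h were PIP2;2 (−0.64, adjusted p = 0.0393) and TIP2;3 (−0.51, adjusted p = 0.45). With quantile normalization 13 of these 21 calls were made, and the 8 that ended are given with the dependence on processing.

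Hypocotyl and cotyledon levels were also compared at each time. All 10 members were higher in the hypocotyl in darkness, against 23.4% of all genes tested, and after 15 min (22.3%), 30 min (22.3%) and 1 h (22.7%). After 3 h 9 were higher, against 23.5%, and PIP2;7 was not called (0.10 ± 0.161, adjusted p = 0.602). After 6 h and 12 h 7 were higher, against 21.8% and 16.8%, and 2 were lower, against 23.1% and 18.4%. The lower ones were TIP2;1 (−2.07 and −2.2) and PIP2;7 (−2.49 and −2.33, adjusted p = 7.75e-11 at the later time). The remaining gene, PIP1;2, differed by 0.34 and 0.38, under the size limit, and by 1.31 and 1.37, past it, with quantile normalization. In darkness the difference ran from 2.32 for that gene to 8.71 ± 0.258 for TIP2;2. For TIP2;2 and TIP2;3 it stayed between 7.6 and 8.88 at all 7 times, on a scale that understates folds against such low values. After 12 h TIP1;1 was still higher in the hypocotyl by 1.18, or by 0.86 and under the limit without cotyledon replicate B of 12 h, and its call also ended at a value just below 1 when libraries were rescaled by nuclear coding genes.

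**Figure D3:**
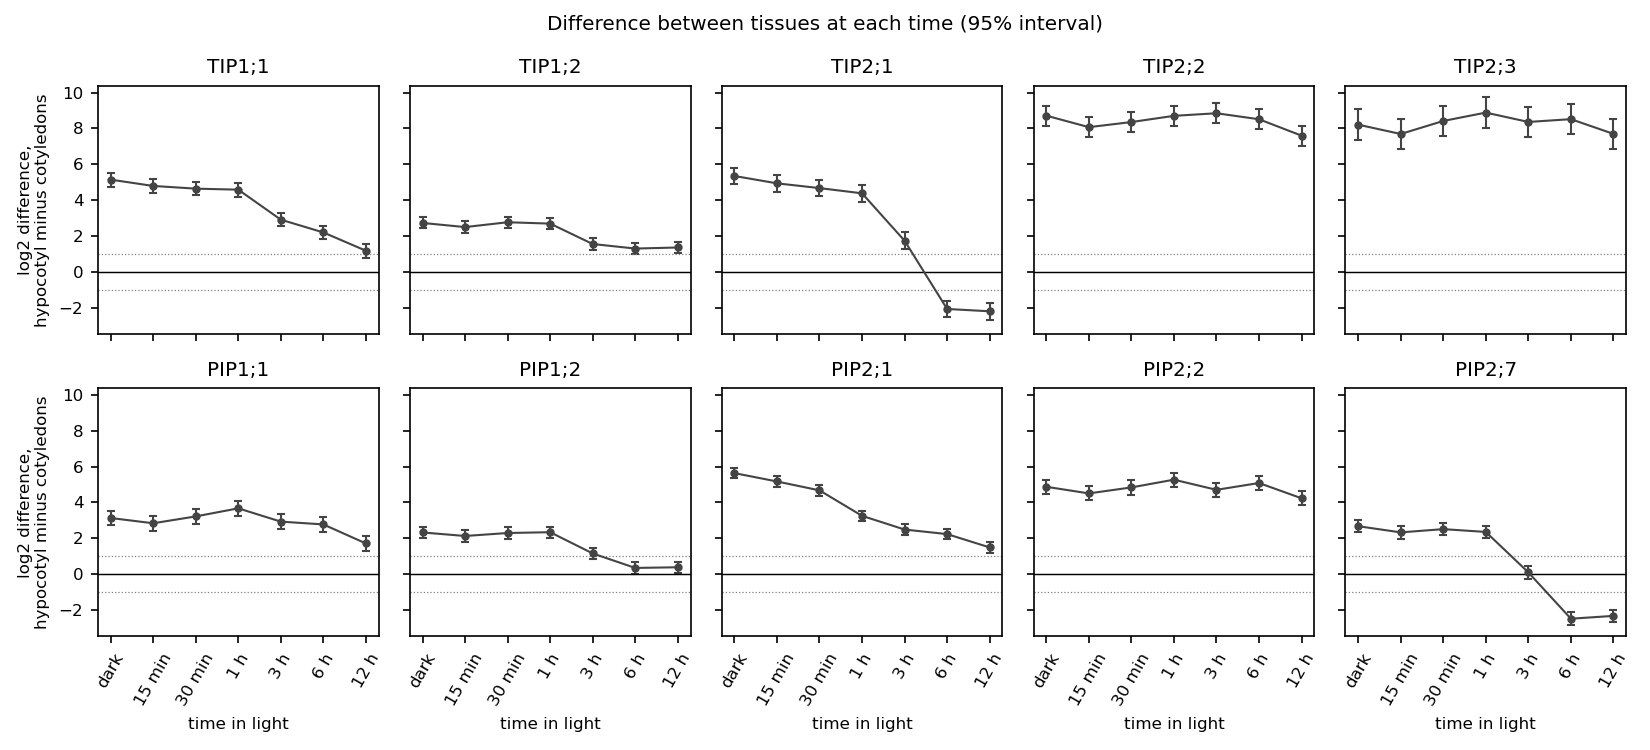
Difference between hypocotyl and cotyledon levels, log2(FPKM + 1), at each time for each gene, with 95% intervals from the limma fit. Dotted lines mark a difference of 1 in either direction. For 2 genes, 1 of each group, the difference passes from above 0 in darkness to below 0 after 6 h and 12 h.

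Marker genes of some other cell types also changed over the same times. The 6 endodermis genes mark the cell layer around the vascular cylinder. They summed to 2440 and 2560 FPKM in the dark hypocotyl libraries, 1970 and 2150 after 6 h and 526 and 589 after 12 h. By 12 h 5 of the 6 fell, against 14.2% of all genes tested. The part of the endodermis genes in the 12 h values of the members was not tested. The 9 vascular genes summed to 247 and 272 FPKM in dark hypocotyls and 235 and 253 after 12 h. Their changes after 12 h went both ways, from −0.697 to 1.26, which the sum does not show. The 6 cotyledon genes, which include light-induced genes of photosynthesis, summed to 215 and 236 FPKM in dark hypocotyls and 6560 and 7280 after 12 h. By then 3 of the 6 were higher and 2 lower, beside 14.2% of all genes lower. The share of all genes higher in hypocotyls is not given here. The part of these cotyledon genes was not tested either. In the cotyledon libraries, 4 genes listed for the shoot apex (STM, CUC1, CUC2 and AS1) summed to 184 and 222 FPKM in darkness. Their sum was 102 and 108 after 1 h, 123 and 130 after 3 h, 77.4 and 78.5 after 6 h and 73.9 and 74.5 after 12 h. Of the 3 tested 2 fell by 6 h and by 12 h, a count that has no share of all genes beside it here. The median changes of the 3 were −1.22 and −1.15, beside 0.03 and 0.04 over all genes tested. The highest change among them was 0.605 after 6 h and 0.474 after 12 h. The sum of the 4 genes is not a measure of the amount of apex. The 6 cotyledon genes summed there to 12600 and 17100 FPKM in darkness, 18400 and 21800 after 3 h and 33800 and 36400 after 12 h. By 12 h 3 of these were higher, against 15.1% of all genes, and 3 lower. The share of all genes lower in cotyledons is not given here. The part of either list in the rises of members in cotyledons was not tested.

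Of the 25 other aquaporins listed, 17 were tested. All 8 other PIPs were among them, and of these 5 fell in hypocotyls by 12 h (median change −1.4), against 14.2% of all genes, and 6 rose in cotyledons by 12 h (median 1.41), against 15.1%. In hypocotyls 2 of the 8 were higher after 12 h by adjusted p alone, by up to 0.731. Of the other tested groups, 2 of 2 TIPs, 2 of 4 NIPs and 0 of 3 SIPs fell there by 12 h. In cotyledons 1 of the 3 SIPs rose by 12 h, 1 of the 2 TIPs fell and no NIP was called. The share of all genes lower in cotyledons is not given. The largest fall was that of PIP2;4 (AT5G60660), a plasma membrane channel known from roots, which was 1104 and 934 FPKM in dark hypocotyls, 208 and 197 after 3 h, 24.1 and 27.1 after 6 h and 7.77 and 8.46 after 12 h. Both 12 h libraries were lowest, with a change of −6.8 ± 0.127 (adjusted p = 5.91e-19). PIP1;4, another plasma membrane channel, was 219 and 215 FPKM in dark hypocotyls and 66 and 64.9 after 6 h (−1.71), and 47.1 and 42.6 in dark cotyledons and 316 and 333 after 3 h (2.83, adjusted p = 1.85e-14). It thus fell in one tissue and rose in the other. After 3 h in cotyledons PIP2;3 rose by 2.96 and PIP2;6 by 2.74. SIP1;2, of a small group found in internal membranes, was 0.715 and 0.625 FPKM in dark cotyledons and 28.5 and 19.9 after 12 h, a rise of 3.89 (adjusted p = 5.51e-13). TIP3;2, the tonoplast channel of seeds, was 8.64 and 6.22 FPKM in dark cotyledons and 0 and 0.0907 after 3 h, a change of −3.0 (adjusted p = 4.72e-07). Of its 50-nt stretches 44.35% are shared with other genes, 40.25% with AT1G05333, which overlaps it on the other strand. Whether the counting used strand is not known from these labels and files, so that its values are uncertain. PIP2;3 shares 16.5% of its stretches with the member PIP2;2.

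For each member, the 2 non-aquaporin genes of most similar course were sought among 14670 candidates, by Pearson r over the 14 group means after each tissue's own mean was subtracted. PRP4, a proline-rich cell wall protein, had the highest r with TIP1;1 (0.989). Its mean was 1522 FPKM in dark hypocotyls and 522 after 12 h, and 104 in dark cotyledons and 598 after 12 h. The vacuolar proton pump subunit VHA-E3 came next for the same gene (0.979). For TIP2;1 the nearest were AT3G05320 (0.989) and FPS1, a farnesyl diphosphate synthase (0.989), whose mean went from 261 to 71.9 FPKM in hypocotyls and from 54 to 79.9 in cotyledons. For PIP2;7 they were AT1G12845 (0.99) and the syntaxin SYP71 (0.988), and for PIP2;1 AT2G17300 (0.983) and RWA4 (0.981). The r of the other 6 members with their nearest gene ran from 0.938 to 0.982.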

How the data were processed

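The submitters' processing notes name CASAVA 1.8.2, TopHat2 2.0.8, Cuffdiff 2.1.1, Cuffnorm and the TAIR10 build. By the file headers, one deposited table holds the authors' FPKM per gene and library, and the other, of which only the authors' q-values (adjusted p-values) were used, their comparisons with darkness. Libraries were grouped by the labels' tissue and condition. Values were transformed to log2(FPKM + 1), genes averaging under 1 FPKM were dropped, and limma 3.58.1 (R 4.3.3, trend and robust estimation) was applied to 14 group means, which left 14 residual degrees of freedom. The model gave 31 contrasts, each adjusted by Benjamini-Hochberg over 18678 genes. Fold changes on this scale understate those of low genes.

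The members and gene lists were chosen with earlier results of these data known. The genes named are all 10 members, up to 6 other aquaporins and up to 4 genes each of a proton pump and a PIP trafficking list by largest change, and the 2 genes of most similar course per member. Depth was read from 16379 values of 2 to 5 reads, of which 91.8% lay within 0.1 of a whole number (20% if spread evenly), and covers counting error only. In data simulated for hypocotyls after 12 h, 70 of 77 genes changed by 1.5 on the log2 scale were called, 58 of 60 changed by 2 and 59 of 63 changed by 3, with 1 false call. Alternatives tried were pseudocounts of 0.1 and 5, no filter and a filter of 5 FPKM, quantile normalization, rescaling by nuclear coding genes, plain estimation, separate fits per tissue, a replicate block, leaving out each library, and, chosen after seeing the data, the authors' deposited q-values with the changes fitted here. Sequences and figures were made with Python 3.11.15, pandas 2.3.3, Biopython 1.88 and matplotlib 3.10.9.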

Additional observations from a re-analysis of the deposited data

Results flagged for a closer look

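The response to light differed between the tissues, by a test of the difference itself (limma, hypocotyl change minus cotyledon change on the log2 scale, adjusted p below 0.05 and size 1 or more), for 8 of the 10 genes. In every case the value was lower in the hypocotyl. On that side the test called 5.04% of all genes after 1 h, 13.5% after 3 h, 19.1% after 6 h and 17.3% after 12 h. For TIP2;1 the difference was −3.61 after 3 h, −7.42 after 6 h and −7.55 after 12 h. PIP2;7 gave −2.58, −5.16 and −5.0 at these 3 times. The difference for PIP2;1 was −2.38 after 1 h and then −3.15, −3.4 and −4.15. At the 3 later times it was −2.23, −2.95 and −3.97 for TIP1;1, −1.17, −1.98 and −1.94 for PIP1;2, and −1.18, −1.43 and −1.37 for TIP1;2. After 12 h alone it was −1.42 for PIP1;1 and −1.12 for TIP2;2. With quantile normalization every such call ended for 4 of the 8 genes, TIP1;2, PIP1;2, PIP1;1 and TIP2;2.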

How the results depend on the processing

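Of the 5 sets of member calls (15 for light in hypocotyls, 10 in cotyledons, 21 for the difference between tissues, 67 for tissue levels and 7 between times), 1 moved by over 1.5 times. Quantile normalization left 13 of the 21, and the cause was not tested. In the other sets it gave 12, 9, 69 and 8 calls. It ended the calls of that difference for TIP1;2 and PIP1;2 at all 3 times (after 6 h −0.56 in place of −1.43, and −0.64 in place of −1.98), and for PIP1;1 and TIP2;2 after 12 h (−0.94 and −0.73). The last also ended with a pseudocount of 5 (−0.98) and without dark cotyledon replicate A (−0.97), dark hypocotyl A (−0.96) or 12 h hypocotyl A (−0.99), and that for PIP1;2 after 3 h without dark cotyledon B (−0.98). A pseudocount of 0.1 gave 14 calls in the first set, and rescaling 66 of tissue levels. No result of a member reversed under any alternative run. Leaving out each library in turn gave 13 to 16, 10 to 10, 20 to 22, 66 to 67 and 7 to 8 calls in the 5 sets. No strong deviation shared by letter was seen (3 of 91 pairs of groups had a correlation of A minus B over 0.1, range −0.112 to 0.163). The labels do not say whether A and B mark a shared batch, and these correlations cannot settle it. With a replicate block the counts were 15, 10, 21, 67 and 7. Depth limits TIP2;2 and TIP2;3 in cotyledons, at about 3 FPKM. A planned comparison with the authors' own fold changes was not run, since those columns hold cells that are not numbers, and their q-values with the fitted changes, chosen after seeing the data, gave 15 and 10 calls.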

Other observations

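Proton pumps supply the gradients that drive solute uptake into the vacuole and acidify the cell wall, and 20 such genes were tested. In hypocotyls after 12 h 2 of them fell and none rose (median change −0.65), beside 14.2% of all genes that fell, and in cotyledons 1 rose and none fell (median −0.11), beside 15.1% of all genes that rose. Neither share of the list is above that of all genes. AHA2, a plasma membrane proton pump, was 933 and 826 FPKM in dark hypocotyls, 225 and 194 after 3 h and 91.7 and 84.9 after 12 h. Both 12 h libraries lay far below the dark ones, with a change of −3.3 ± 0.163 (limma, adjusted p = 2.91e-13). VHA-a1, a subunit of the vacuolar-type pump, changed by −1.23 in hypocotyls after 12 h and was called, and VHA-c3 by −0.97, under the size limit. VHA-c1, another subunit, was 105 and 81.9 FPKM in dark cotyledons and 250.1 and 316 after 3 h, a rise of 1.59 (adjusted p = 5.53e-09).

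Of 5 genes known to act in the delivery or removal of PIP proteins, SYP121, a syntaxin of the plasma membrane, was 60.9 and 62.7 FPKM in dark hypocotyls and 15.8 and 18 after 12 h, a change of −1.81 (limma, adjusted p = 1.06e-11). It was lower in lit cotyledons as well, at 21.55 and 18.7 FPKM in darkness and 9.75 and 9.11 after 12 h. RMA1, a ubiquitin ligase, was 19.5 and 15.6 FPKM in dark cotyledons, 2.78 and 2.55 after 1 h and 18.7 and 17.1 after 12 h, with a change of −2.33 after 1 h (adjusted p = 2.2e-11). In hypocotyls RMA1 was also lower after 1 h, at 14.9 and 16.1 FPKM in darkness, 7.16 and 7.385 after 1 h and 17.8 and 17.7 after 12 h. TSPO, a membrane protein that binds a PIP2 channel in Arabidopsis and leads it to breakdown, was 0.867 and 5.53 FPKM in dark hypocotyls and 21.9 and 26.5 after 12 h, a rise of 2.85 (adjusted p = 4.52e-06). VAMP721, a vesicle protein, changed by −0.80 in hypocotyls after 6 h, under the size limit.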
